A study of Mus musculus with 10 samples.

Results

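The melanocyte genes described here are Dct, Tyr, Tyrp1, Oca2, Mitf, Sox10, Kit and Ednrb, measured in the cochlea of 2 mouse strains with and without exposure to noise. Members were all probe sets of the array whose gene symbol was one of these 8. They numbered 12 of the 12488 probe sets in the value table, with 4 for Tyrp1, 2 for Sox10 and 1 for each other gene. RNA came from microdissected membranous labyrinth of female mice aged 10 weeks, the RNA of 8 mice was pooled for each array, and 10 arrays were hybridised. The 4 groups were sham-exposed 129X1/SvJ mice (control, 3 arrays), 129X1/SvJ mice exposed to noise (3 arrays), sham-exposed B6.CAST mice (2 arrays) and B6.CAST mice exposed to noise (2 arrays). The noise, an octave band centred on 10 kHz with a level of 105 dB SPL, lasted 1 h, and 6 h after it the mice were killed. B6.CAST is a C57BL/6J strain with a segment of the CAST genome around Cdh23 on chromosome 10, a chromosome that carries none of the 8 genes. The last control and last noise array of 129X1/SvJ are labelled with the spelling 129XI/SvJ. Each array is a pool, so the spread between arrays is a spread between pools, not between single mice.

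Melanocytes of the inner ear sit mostly in the stria vascularis as intermediate cells, between the marginal and basal cells, where they take part in making the endocochlear potential. Like melanocytes of the skin they come from the neural crest and need the receptors Kit and Ednrb, the neural crest factor Sox10 and the master regulator Mitf to reach and survive in their tissue. Mitf turns on the genes of melanin synthesis, which include tyrosinase (Tyr) and its relatives Tyrp1 and Dct, and it binds short DNA words called E-boxes. Oca2 is a melanosome membrane protein whose pink-eyed dilution allele, carried by 129X1/SvJ, lightens the coat, and that strain also has a light-coat allele of Tyr. The coat of B6.CAST is pigmented. The strain comparison therefore asks how melanocyte transcripts in the ear differ between a light-coated and a pigmented strain, and the noise comparison asks whether they change in the hours after exposure.

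Promoter sequence of the pigment genes is given first, for genes that differed between the strains below (Dct, Kit and the channel gene Trpm1). Windows are also given for Tyr and Oca2, which were tested and did not pass, and for Tyrp1, which was too dim to test. E-box words stood in windows of each kind, and the window of Kit held none. Each stretch runs 5′ to 3′ on the gene's own strand, from 250 bases before to 50 bases after the RefSeq transcript start in build GRCm38.p6. Capitals mark the E-box words CATGTG and CACGTG in either orientation, so a reversed CATGTG appears as CACATG. The positions are chr14:118052197-118052496 on the minus strand for Dct, chr7:87493463-87493762 on the minus strand for Tyr and chr4:80833963-80834262 on the plus strand for Tyrp1. Those of Oca2, Trpm1 and Kit are chr7:56239509-56239808, chr7:64153585-64153884 and chr5:75574737-75575036, all on the plus strand. For Trpm1 and Kit, each with 2 listed starts, the first is shown.
Dct: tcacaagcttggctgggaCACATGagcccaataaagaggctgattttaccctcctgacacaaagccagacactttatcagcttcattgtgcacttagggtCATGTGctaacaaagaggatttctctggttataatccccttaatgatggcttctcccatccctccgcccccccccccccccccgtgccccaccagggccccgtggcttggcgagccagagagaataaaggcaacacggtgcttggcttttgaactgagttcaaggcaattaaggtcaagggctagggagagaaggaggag
Tyr: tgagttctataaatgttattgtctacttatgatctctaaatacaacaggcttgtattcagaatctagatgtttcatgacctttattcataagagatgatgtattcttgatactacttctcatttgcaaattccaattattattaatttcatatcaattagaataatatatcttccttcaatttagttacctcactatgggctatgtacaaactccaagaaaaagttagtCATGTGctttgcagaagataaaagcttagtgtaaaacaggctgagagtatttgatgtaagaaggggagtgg
Tyrp1: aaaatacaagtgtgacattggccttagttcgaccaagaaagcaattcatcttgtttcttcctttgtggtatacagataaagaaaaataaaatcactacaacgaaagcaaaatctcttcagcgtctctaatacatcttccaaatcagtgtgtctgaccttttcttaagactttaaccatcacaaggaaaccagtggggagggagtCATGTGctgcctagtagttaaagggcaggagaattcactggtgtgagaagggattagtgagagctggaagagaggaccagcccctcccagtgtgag
Oca2: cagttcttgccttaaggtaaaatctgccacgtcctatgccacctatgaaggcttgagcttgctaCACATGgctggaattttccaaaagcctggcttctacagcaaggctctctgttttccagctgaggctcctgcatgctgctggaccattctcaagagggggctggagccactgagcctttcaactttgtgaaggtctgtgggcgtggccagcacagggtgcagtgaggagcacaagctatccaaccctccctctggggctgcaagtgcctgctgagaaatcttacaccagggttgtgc
Trpm1: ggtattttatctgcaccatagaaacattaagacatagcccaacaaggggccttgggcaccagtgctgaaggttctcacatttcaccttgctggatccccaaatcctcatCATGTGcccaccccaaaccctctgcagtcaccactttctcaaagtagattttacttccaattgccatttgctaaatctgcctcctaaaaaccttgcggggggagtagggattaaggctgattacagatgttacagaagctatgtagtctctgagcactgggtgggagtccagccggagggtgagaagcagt
Kit: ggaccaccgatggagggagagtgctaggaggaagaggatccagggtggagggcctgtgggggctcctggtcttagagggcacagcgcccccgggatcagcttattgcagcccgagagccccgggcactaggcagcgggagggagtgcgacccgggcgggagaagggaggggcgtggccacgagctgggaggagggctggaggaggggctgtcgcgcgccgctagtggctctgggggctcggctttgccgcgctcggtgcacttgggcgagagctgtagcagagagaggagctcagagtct

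Of the 8 genes, 7 had a promoter in the table used here, all but Sox10. The word CATGTG, searched on both strands, lay 150 bases before the start of Dct, with a reversed copy at 232 bases before it. It lay 21 bases before the start of Tyr, 46 before that of Tyrp1 and 141 before that of Trpm1, and reversed at 186 bases before that of Oca2. The window of the second Trpm1 start, not printed, held CACGTG at 229 bases before that start and a reversed CATGTG at 37 bases after it. The windows of Kit, Ednrb and Mitf held neither CATGTG nor CACGTG. Among all 32851 promoters of the same length, 14.2% held CATGTG and 7.15% held CACGTG. In Dct, Tyr and Tyrp1 the word stood within the same 10-letter run, GTCATGTGCT, which 61 of the 32851 promoters (0.186%) held on either strand. That run was picked after the sequences were read, and a match is a description of the letters, not of binding.

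The arrays differed in RNA quality and in likeness to each other. Gapdh signal at the 3′ end over that at the 5′ end, a measure of RNA integrity, was 29.2 for control array 2 of 129X1/SvJ and 6.94 for noise array 1 of B6.CAST. The other 8 arrays had ratios from 0.790 to 1.397. Noise array 1 of 129X1/SvJ correlated least with the others, with a mean r of 0.910 where the other 9 arrays had 0.943 to 0.955. Strain differences that rest on these arrays are given below with and without them, and those of Atp7a, Lyst and the dim probe sets were refitted without them after the data were seen. A filter that left out the dimmest 30% of probe sets, those below a mean signal of about 42.9, kept 8695 for testing. Of the 12 melanocyte probe sets, 6 passed it, which were those of Dct, Tyr, Oca2, Sox10 and Kit. The 6 others, for Tyrp1, Mitf and Ednrb, were dim and were fitted only without the filter. A probe set was taken to differ when its limma p, adjusted by Benjamini-Hochberg over all tested probe sets, was below 0.05. Log2 differences are on the scale of log2(signal + 16), which understates the changes of dim probe sets.

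Between the strains, Dct and Kit were higher in B6.CAST, Tyr was higher on average without passing the test, and both Sox10 probe sets were lower on average without passing it. Averaged over control and noise, 2 of the 6 tested probe sets passed, both higher in B6.CAST, against 2.08% of all tested probe sets called higher (3.24% in either direction). The 6 had a median difference of 0.38 on the log2 scale, against -0.01 over all tested probe sets. In control mice alone 0 of the 6 passed in limma (0.92% of all tested), while Dct and Kit had unadjusted p below 0.05 (11.1% of all tested). Among noise-exposed mice 1 of the 6 passed, which was Dct (0.874% of all tested were called higher). A lower signal in the dissected tissue can come from fewer cells of a type or from less RNA in each cell, and these arrays cannot tell the 2 apart. Sequence differences between the strains under the probes could also alter a signal. This was not tested, since the probe sequences were not at hand.

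**Figure D1:**
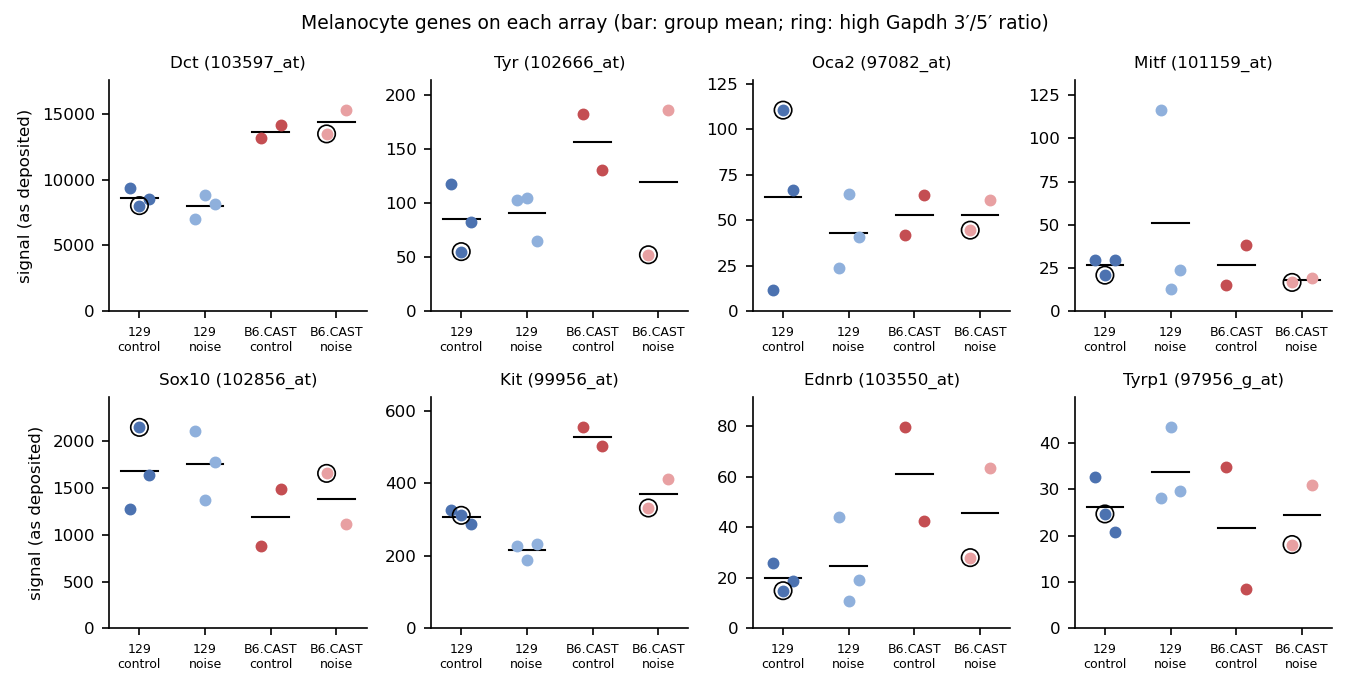
Deposited signal (arbitrary units, linear axis from 0) of 8 melanocyte probe sets, 1 for each gene, on each of the 10 arrays, with 129 standing for 129X1/SvJ. Points are arrays, bars are group means and rings mark the 2 arrays with a high Gapdh 3′ to 5′ ratio. Dct lies between 6962 and 9332 in 129X1/SvJ and between 13147 and 15272 in B6.CAST.

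Dct, the dopachrome tautomerase of melanin synthesis (probe set 103597_at), separated the strains on all arrays. Its signals were 9332, 8015 and 8490 on the 129X1/SvJ control arrays and 6962, 8832 and 8140 on the noise arrays. The B6.CAST controls gave 13147 and 14138, and the noise-exposed pools 13466 and 15272. Every B6.CAST array was above every 129X1/SvJ array, a pattern that 3.59% of all tested probe sets showed in this direction. The mean signal was 8295 ± 810 (SD, n = 6) in 129X1/SvJ and 14006 ± 940 (SD, n = 4) in B6.CAST. The log2 difference was 0.69 ± 0.09 (SE), with a 95% interval from 0.49 to 0.90, which is 1.62-fold (limma, adjusted p = 0.00153). By p it ranked 59th of 8695 probe sets. In control mice the difference was 0.61 ± 0.13 (adjusted p = 0.0593) and among noise-exposed mice 0.78 ± 0.13 (adjusted p = 0.0144). The latter call was lost without either noise array of B6.CAST, of which the first had the high Gapdh ratio. Without both arrays of high ratio the average difference was 0.74, with adjusted p = 0.0207. The 4 group means ordered as 129X1/SvJ noise, 129X1/SvJ control, B6.CAST control and B6.CAST noise, and within each strain the arrays of the 2 groups overlapped.

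Tyr, the rate-limiting enzyme of melanin synthesis (102666_at), had signals of 118, 55.0 and 82.6 on the control pools of 129X1/SvJ and 103, 104 and 64.5 on its noise-exposed pools. The control arrays of B6.CAST gave 182.5 and 130.7, and its noise arrays 52.1 and 186. The control arrays of the strains did not overlap (higher without overlap for 13.9% of all tested), and the noise arrays did, through noise array 1 of B6.CAST, the lowest of all 10. The difference was 0.55 ± 0.28 on the log2 scale (95% interval -0.06 to 1.16, adjusted p = 0.386). The 2 lowest Tyr signals of all were on the 2 arrays with a high Gapdh ratio. With both left out, 129X1/SvJ arrays lay between 64.5 and 118 and B6.CAST arrays between 131 and 186, which no longer overlapped (7.07% of tested probe sets were higher without overlap on these 8 arrays). The difference was then 0.78 ± 0.26, with adjusted p = 0.207, and the test was still not passed. The part of RNA quality in this was not tested.

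Tyrp1, which acts with Tyr and Dct in the melanosome, gave no usable level. Its 4 probe sets had signals between 0.8 and 56.2 over the 10 arrays, all with means below the filter. Their strain differences in the fit without the filter were -0.24, -0.31, 0.46 and 0.11 on the log2 scale, 2 in each direction, with standard errors from 0.15 to 0.28. The probe set of the brightest mean, 97956_g_at, lay between 20.9 and 43.4 in 129X1/SvJ and between 8.4 and 34.9 in B6.CAST. Probe set 97954_at read 32.1 on the 129X1/SvJ array of high Gapdh ratio and at most 10.8 on the 5 other arrays of that strain. In B6.CAST it read 6.6 on the array of high ratio and 24.4 to 40.1 on the 3 others. Without both arrays every B6.CAST array was above every 129X1/SvJ array (higher without overlap for 7.07% of the 8695 probe sets past the filter). The difference was then 0.96 (adjusted p = 0.0574, without the filter).

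Oca2, the melanosome protein altered in the pink-eyed dilution allele (97082_at), was near the filter. Its signals were 11.8, 110.5 and 66.5 on the control pools of 129X1/SvJ and 23.8, 64.5 and 40.8 on its noise-exposed pools. The B6.CAST controls gave 41.6 and 64, and the noise-exposed pools 44.5 and 61.3. The B6.CAST values lay within the range of 129X1/SvJ, which included both the lowest and the highest array. The difference was 0.22 ± 0.42 (95% interval -0.71 to 1.14, adjusted p = 0.851), and these arrays leave any difference within that interval undetected.

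Of the transcription factors, Mitf (101159_at) was below the filter. Its signal was 116 on the first noise array of 129X1/SvJ, the array that correlated least with the others, and 12.8 to 38.5 on the other 9. Its strain difference without the filter was -0.29 ± 0.35 (adjusted p = 0.800), and -0.03 ± 0.24 when that array was also left out (adjusted p = 0.981).

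Sox10, a factor of neural crest cells that melanocytes share with Schwann cells and other glia, was measured by 2 probe sets. The first, 102856_at, read 1272, 2147 and 1638 on the control pools of 129X1/SvJ and 2104, 1373 and 1778 on its noise-exposed pools. In B6.CAST the controls gave 881 and 1490, and the noise-exposed pools 1655.5 and 1118. The strains overlapped, and the lower values were in B6.CAST, with a difference of -0.44 ± 0.20 (95% interval -0.88 to -0.00, unadjusted p = 0.0489, adjusted p = 0.324). The second, 100283_at, gave -0.46 ± 0.31 (adjusted p = 0.538), with signals of 446.2 to 945.5 in 129X1/SvJ and 278 to 741 in B6.CAST. On both arrays of high Gapdh ratio both Sox10 probe sets were the highest of their strain, where Tyr was the lowest. Without these arrays the Sox10 differences were -0.48 and -0.65, with adjusted p = 0.409 and 0.315. In 129X1/SvJ the first probe set read 2147 on that array and at most 2104 on the others, and in B6.CAST 1655.5 and at most 1490.

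**Figure D2:**
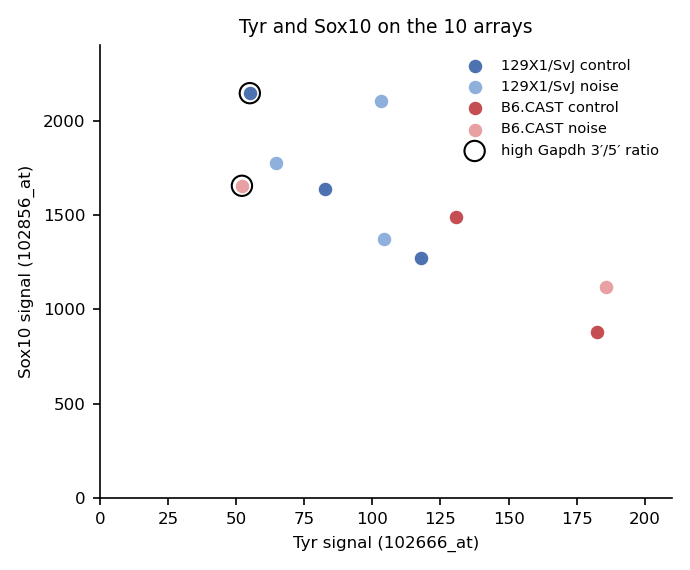
Deposited signal of Sox10 (102856_at, vertical axis, arbitrary units) against that of Tyr (102666_at, horizontal axis, arbitrary units), 1 point for each of the 10 arrays, coloured by group, with both linear axes starting at 0. The 2 ringed arrays, those with a high Gapdh ratio, have the lowest Tyr signals (55.0 and 52.1), and each has the highest Sox10 signal of its strain.

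Schwann cell and myelin markers were set beside Sox10. Of the 9 that were tested, 7 were negative in the strain average, with a median of -0.22 against -0.01 over all tested probe sets. Of the 9, 5 had an unadjusted p below 0.05 (15.3% of all tested), 4 of them negative and 1 positive, which was S100b, a calcium-binding protein, at 0.27 ± 0.10 (adjusted p = 0.214), named after its value was seen. Limma called 1 of the 9 (3.24% of all tested), Egr2, a regulator of myelination, lower in B6.CAST at -0.83 ± 0.17 (adjusted p = 0.0189). Its call was lost in 3 of the 10 fits that each left out 1 array. The myelin proteins Mag and Pmp22 gave -0.79 ± 0.19 (adjusted p = 0.0511) and -0.45 ± 0.11 (adjusted p = 0.0516). The summed signal of all 9 ranged from 25874 to 32020 in 129X1/SvJ and from 26268 to 31869 in B6.CAST. The part of Schwann cell RNA in the Sox10 signal was not tested.

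Of the 2 receptors, Kit was higher in B6.CAST. Kit, the receptor for stem cell factor (99956_at), had signals of 325, 311 and 286 on the control pools of 129X1/SvJ and 226, 189 and 232 on its noise-exposed pools. The B6.CAST controls gave 553.6 and 502.3, and the noise-exposed pools 331.5 and 410.1. The lowest B6.CAST array, at 331.5, was above the highest 129X1/SvJ array, at 324.8 (higher without overlap for 3.59% of all tested). Averaged over control and noise the difference was 0.79 ± 0.14 on the log2 scale (95% interval 0.49 to 1.09), which is 1.73-fold (adjusted p = 0.00823), and by p it ranked 122nd of 8695. It was 0.75 ± 0.19 in control mice (adjusted p = 0.135) and 0.83 ± 0.19 among noise-exposed mice (adjusted p = 0.0683), so neither passed alone. The average call was lost without the second noise array of B6.CAST (adjusted p = 0.0591) and when the 2 arrays of high Gapdh ratio were left out (0.83 ± 0.19, adjusted p = 0.0661).

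Mast cells also carry Kit. The 5 other mast cell markers that were tested had a median strain difference of -0.18, with 2 positive and 3 negative. The proteases Tpsb2 and Cma1 gave 0.23 ± 0.23 and 0.09 ± 0.22, while Gata2, Srgn and Hdc gave -0.24, -0.26 and -0.18. Cma1 and Hdc were named after their values were seen. Limma called 0 of the 5 (3.24% of all tested), with 0 at an unadjusted p below 0.05 (15.3% of all tested in the strain average). Their summed signal was 1622 to 2045 in 129X1/SvJ and 1471 to 1824 in B6.CAST, and in it Gata2 alone read 679 to 1177. The mast cell genes Cpa3, Tpsab1, Mcpt1, Mcpt2, Mcpt4, Fcer1a and Ms4a2 were all below the filter, with signals between 1.5 and 74.8, none of them at 0 on any array. Kitl, the gene of the ligand of Kit, gave -0.21 ± 0.19 (adjusted p = 0.672).

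Ednrb, the receptor through which endothelins guide melanocyte precursors (103550_at), was below the filter. Its deposited signals were 25.8, 14.9 and 18.9 on the control pools of 129X1/SvJ and 44.0, 10.9 and 19.1 on its noise-exposed pools. The B6.CAST controls gave 79.6 and 42.7, and the noise-exposed pools 28 and 63.4. In the fit without the filter the difference was 0.90 ± 0.24 (95% interval 0.36 to 1.43, unadjusted p = 0.00382, adjusted p = 0.105). After normalisation every B6.CAST array was above every 129X1/SvJ array, as for 2.72% of the 12422 probe sets fitted without the filter. Before it, the first noise array of 129X1/SvJ, at 44.0, lay above the B6.CAST arrays at 42.7 and 28. Without that array the difference was 0.98 (adjusted p = 0.0812). It was 1.06 with the 2 high-ratio arrays left out (adjusted p = 0.201).

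**Figure D3:**
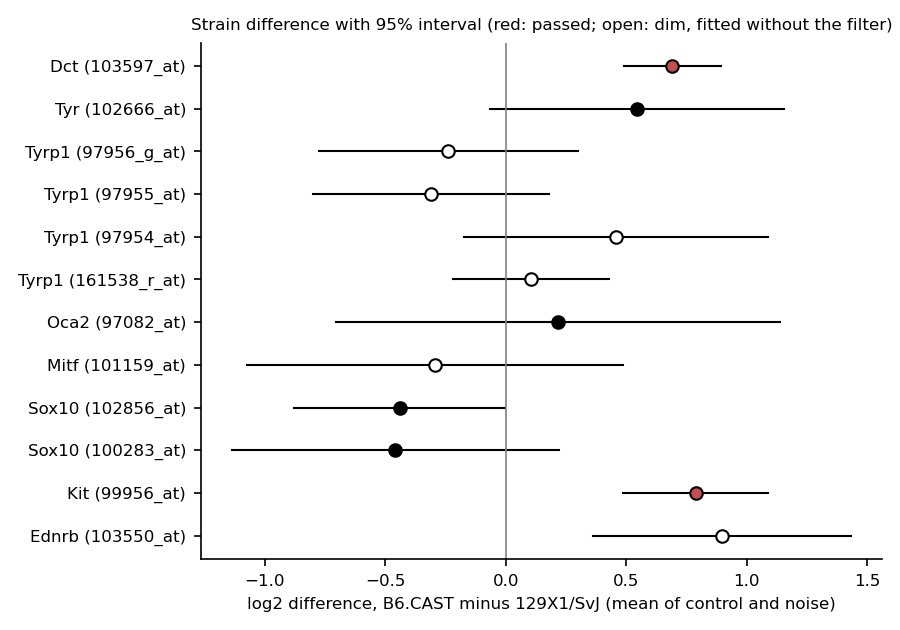
Strain difference of the 12 melanocyte probe sets (horizontal axis, log2 difference, B6.CAST minus 129X1/SvJ, mean of control and noise) with 95% intervals. Red points passed the test (Dct 0.69, Kit 0.79), black points were tested and did not pass, and open points were dim and fitted without the filter. The interval of Ednrb, from 0.36 to 1.43, lies above 0, while its adjusted p was 0.105.

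Beyond the 8 genes, 1 other gene of melanosome enzymes, matrix and transporters passed. Of the 6 tested genes of that list that were not among the 8, limma called 1 higher in B6.CAST in the strain average (2.08% of all tested). It was Trpm1, and the 6 had a median of 0.33. Trpm1, a channel gene whose transcript is a known marker of melanocytes, read 105, 83.8 and 95.6 on the control pools of 129X1/SvJ and 103, 109 and 94.3 on its noise-exposed pools. In B6.CAST the controls gave 289 and 216.5, and the noise-exposed pools 196 and 235. Every B6.CAST array was above every array of 129X1/SvJ, as for 3.59% of all tested probe sets. The difference was 1.18 ± 0.17 (adjusted p = 0.00233), with 1.23 in control mice (adjusted p = 0.0403) and 1.13 among noise-exposed mice (adjusted p = 0.0424). Without both arrays of high Gapdh ratio the average difference was 1.16, with adjusted p = 0.0399, and the calls within control and within noise-exposed mice were lost (adjusted p = 0.200 and 0.398). These 2 calls were also lost in 8 and in 10 of the 10 fits that each left out 1 array.

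Atp7a, the copper pump that supplies tyrosinase, gave 1.48 ± 0.37 (adjusted p = 0.0524), with B6.CAST arrays between 264 and 346 and 129X1/SvJ arrays between 21.3 and 345. The 345 was on the first noise array of 129X1/SvJ, and the 5 others were at most 103. Without that array Atp7a passed, at 1.76 ± 0.30 (adjusted p = 0.00951). The 21.3 was on the array of high Gapdh ratio, and without both such arrays the difference was 1.25 (adjusted p = 0.157). Gpr143, a receptor of the melanosome membrane, gave 0.52 ± 0.22 (adjusted p = 0.281), and Pmel, the melanosome fibre protein, 0.14 ± 0.16 (adjusted p = 0.738). Pmel, like Kitl above, was chosen after its value was seen.

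Of the 9 tested genes of melanosome biogenesis and transport, limma called 0 in the strain average (3.24% of all tested). Their median was 0.07, with 7 positive and 2 negative, and 2 reached an unadjusted p below 0.05 (15.3% of all tested). Those 2 were Hps1, which is needed to build lysosome-related organelles, at 0.70 ± 0.21 (adjusted p = 0.106), and Lyst, a regulator of their size, at 0.92 ± 0.33 (adjusted p = 0.192). Lyst read 197 on the first noise array of 129X1/SvJ and at most 56 on the 5 others, and without that array it passed at 1.16 (adjusted p = 0.0461). Mlph, which links melanosomes to the cell's transport motor, gave 0.02 ± 0.39. Of the 13 other tested ligands, receptors and regulators, limma called 0 (3.24% of all tested). In that list 1 reached an unadjusted p below 0.05 (15.3% of all tested), and the median was -0.18. Erbb3, a neuregulin receptor also found on Schwann cells, gave -0.29 ± 0.13 (adjusted p = 0.308). Mc5r, a melanocortin receptor, gave -0.40 ± 0.19 (adjusted p = 0.354), and the endothelin gene Edn1 -0.20 ± 0.19 (adjusted p = 0.679). Of the list, 8 genes other than Ednrb and Mitf were too dim to test, among them the endothelin gene Edn3 and the agouti gene a.

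Other cells of the cochlea were set beside these differences. Of 10 listed intermediate cell markers, 7 had a probe set of 1 gene symbol, and the channel genes Kcnj10 and Kcnj13 did not. Met and Slc7a11 were too dim to test, so only Gsta4 and Ptgds were tested outside the 8 genes. Gsta4, a glutathione transferase, gave -0.04 ± 0.11. Ptgds, a prostaglandin synthase, had deposited signals of 26599 to 44928, and on 9 of the 10 arrays quantile normalisation set it to the same top value, so its fitted difference is not read here. The 10 tested markers of marginal and basal cells had a median of 0.09, with 0 passing in limma (3.24% of all tested). Of the 10, 2 had an unadjusted p under 0.05 (15.3% of all tested). Their summed signal was 31210 to 35830 in 129X1/SvJ and 33739 to 36969 in B6.CAST. Cldn11, the tight junction gene of basal cells, gave 0.37 ± 0.14 (adjusted p = 0.205), and Lrp2, a receptor of marginal cells, 0.45 ± 0.22 (adjusted p = 0.372). Car2, a carbonic anhydrase, gave -0.16 ± 0.07 (adjusted p = 0.301).

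The 13 tested markers of hair cells, supporting cells and spiral ligament had a summed signal of 34294 to 46328 in 129X1/SvJ. In B6.CAST it was 46494 to 53622. These ranges did not overlap, but a sum weighs the brightest genes most, and no share over other gene sets was computed. Limma called 0 of the 13 (3.24% of all tested), and their median was 0.11, with 8 positive and 5 negative. Of the 13, 5 reached an unadjusted p below 0.05 (15.3% of all tested). Ocm, a calcium-binding protein of outer hair cells, gave 0.41 ± 0.15 (adjusted p = 0.203), while the tectorial membrane genes Tecta and Tectb gave -0.85 ± 0.23 (adjusted p = 0.0768) and -0.81 ± 0.26 (adjusted p = 0.136). The part of tissue composition in the strain differences of Dct, Kit and Trpm1 was not tested.

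Markers of blood and bone varied between arrays. The 12 tested neutrophil markers had a median of -1.28 and summed signals from 3493 to 37151 in 129X1/SvJ and from 2375 to 19972 in B6.CAST. Limma called 0 of them (3.24% of all tested) and 7 had an unadjusted p under 0.05 (15.3% of all tested). Camp, an antimicrobial peptide, gave -1.27 ± 0.42. The strain differences of the 12 had a median of 0.20 in control mice, with 10 positive and 0 at an unadjusted p under 0.05 (11.1% of all tested). Among noise-exposed mice the median was -2.57, with 12 of 12 negative and 11 at an unadjusted p under 0.05 (10.6% of all tested), and limma called 0. Of 7 erythroid markers (median -0.75), 7 were negative and 5 had an unadjusted p under 0.05 (15.3% of all tested). Limma called 1 of the 7 (3.24% of all tested), the globin gene Hbb-b2, at -1.81 ± 0.38 (adjusted p = 0.023). Of 10 endothelial markers (median -0.03), 5 were negative and 3 had an unadjusted p under 0.05 (15.3% of all tested). Limma called 1 of the 10 (3.24% of all tested), Vwf, von Willebrand factor, at -0.90 ± 0.20 (adjusted p = 0.0347). With 1 array left out at a time, the call of Hbb-b2, which resembles other globin genes in sequence, was lost in 4 of 10 fits and that of Vwf in 6. Of 14 macrophage markers (median 0.23), 13 were positive and 3 had an unadjusted p below 0.05 (15.3% of all tested). Limma called 1 of the 14 higher (2.08% of all tested), Ctss, a lysosomal protease, at 0.92 ± 0.14 (adjusted p = 0.00394). Of 6 bone markers (median -0.44), limma called 0 (3.24% of all tested). Of the 6, 2 reached an unadjusted p below 0.05 (15.3% of all tested), with Dmp1 at -0.75 ± 0.18 (adjusted p = 0.0519).

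**Figure D4:**
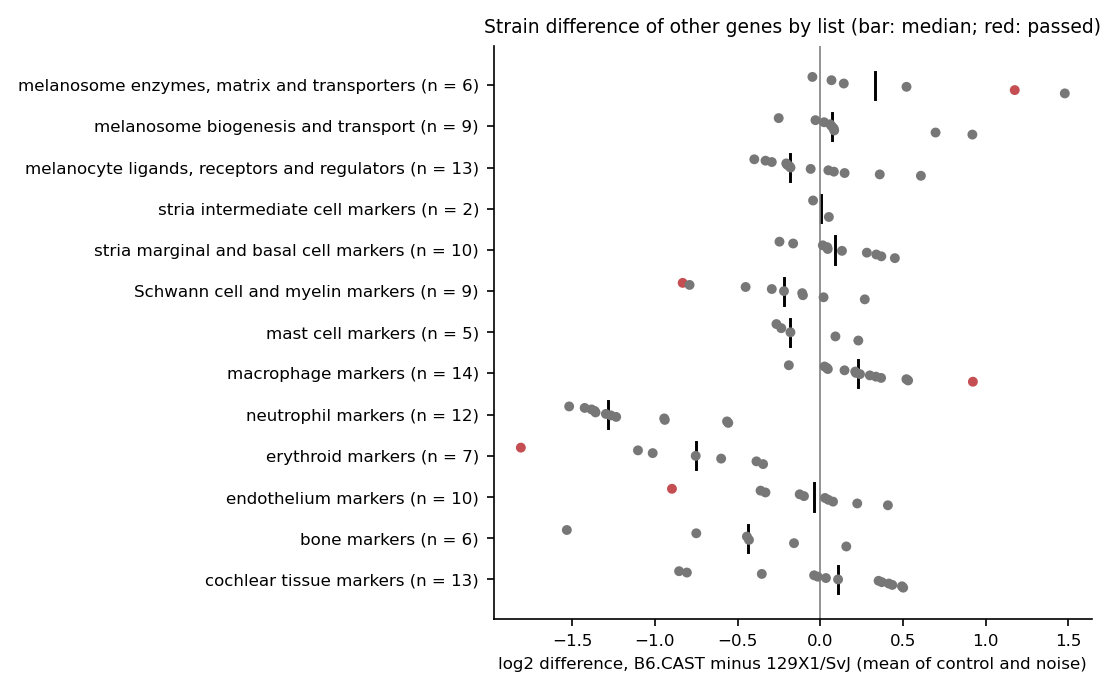
Strain difference (horizontal axis, log2 difference, B6.CAST minus 129X1/SvJ, mean of control and noise) of the tested genes of each list, without the 8 melanocyte genes. Points are genes at their brightest probe set, bars are list medians and red points passed the test. Trpm1, at 1.18, is the red point among the melanosome enzymes, matrix and transporters.

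With noise, Kit was lower on average in both strains without passing the test, and none of the melanocyte probe sets passed. In 129X1/SvJ 0 of the 6 tested probe sets passed in limma (0.506% of all tested), and 1, that of Kit, had an unadjusted p under 0.05 (11.5% of all tested). In B6.CAST 0 of 6 passed (0.046% of all tested), again with an unadjusted p under 0.05 for Kit alone (2.1% of all tested). Averaged over the strains 0 of 6 passed (0.46% of all tested) and 1 had an unadjusted p under 0.05 (7.63%). The median of the 6 was -0.13 in this average, against -0.02 over all tested probe sets. The 2 strains' noise effects were compared directly, and 0 of 8695 probe sets passed (0%), with 0 of the 6 at an unadjusted p under 0.05 (2.97% of all tested).

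Kit had a mean signal of 307.5 ± 19.5 (SD, n = 3) in control and 215.9 ± 23.3 (SD, n = 3) in noise-exposed 129X1/SvJ. In B6.CAST the means were 528 ± 36.3 (SD, n = 2) and 370.8 ± 55.6 (SD, n = 2). Within each strain the highest noise array lay below the lowest control array, a pattern that 2.58% of all tested probe sets showed in both strains at once. The difference was -0.57 ± 0.17 on the log2 scale in 129X1/SvJ (95% interval -0.95 to -0.19, adjusted p = 0.271) and -0.49 ± 0.21 in B6.CAST (95% interval -0.96 to -0.03, adjusted p = 1). Averaged over the strains it was -0.53 ± 0.14 (95% interval -0.83 to -0.23, adjusted p = 0.225), which ranked 95th of 8695 by p. The effects in the strains differed by 0.08 ± 0.27 (95% interval -0.52 to 0.68, adjusted p = 0.997). The group means of Kit were therefore lowest in noise-exposed 129X1/SvJ, then in control 129X1/SvJ, noise-exposed B6.CAST and control B6.CAST. Without both arrays of high Gapdh ratio the average was -0.47, with adjusted p = 0.991. Among mast cell markers other than Kit, limma called 0 of 5 in the noise average (0.46% of all tested). Of these 5, 0 reached an unadjusted p below 0.05 (7.63% of all tested), with a median of -0.04.

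**Figure D5:**
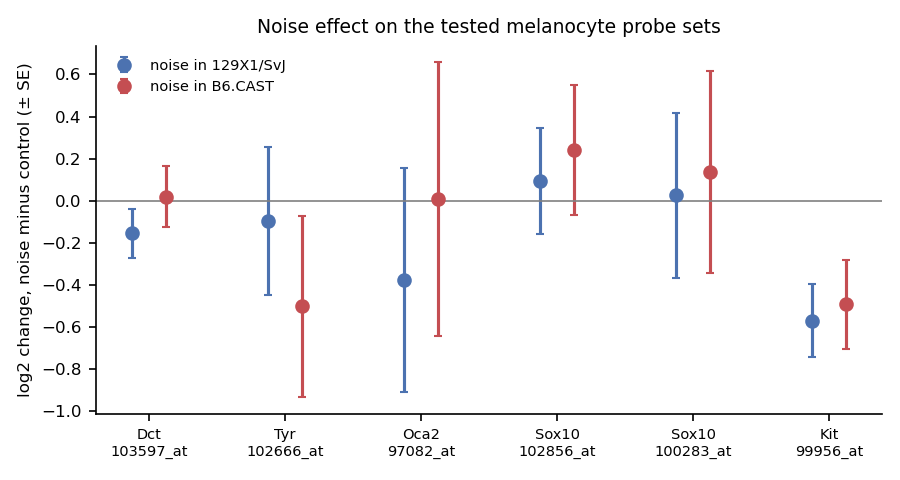
Noise effect (vertical axis, log2 change, noise minus control, with standard errors) on the 6 tested melanocyte probe sets in 129X1/SvJ (blue) and B6.CAST (red). For Kit both points lie below 0, at -0.57 and -0.49, and none of the 12 values shown passed the test.

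Dct had the narrowest interval of the 6 tested probe sets. Its noise effect was -0.15 ± 0.12 in 129X1/SvJ, 0.02 ± 0.14 in B6.CAST and -0.07 ± 0.09 on average, and the 95% interval of the average ran from -0.27 to 0.14. For Tyr the effect was -0.09 ± 0.35 in 129X1/SvJ and -0.50 ± 0.43 in B6.CAST, where it was 0.16 without both arrays of high Gapdh ratio. For Oca2 the effects were -0.38 ± 0.53 and 0.01 ± 0.65. The 2 Sox10 probe sets gave 0.09 ± 0.25 and 0.03 ± 0.39 in 129X1/SvJ and 0.24 ± 0.31 and 0.14 ± 0.48 in B6.CAST. With standard errors of this size, only a large change of Tyr, Oca2 or Sox10 could have been detected.

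Among the dim members, fitted without the filter, noise averages were -0.08 ± 0.35 for Mitf and -0.22 ± 0.24 for Ednrb, and 0 of the 6 probe sets passed in limma. Tyrp1 probe set 97955_at read 4.5, 16.2 and 14.2 on the control pools of 129X1/SvJ and 56.2, 38.8 and 29.1 on its noise-exposed pools. In B6.CAST the controls gave 16.8 and 2.8, and the noise-exposed pools 12.8 and 32.2. The noise average was 0.73 ± 0.22 (adjusted p = 0.439), and the arrays of 129X1/SvJ alone did not overlap (higher without overlap for 6.35% of the 8695 probe sets past the filter). The other Tyrp1 probe sets gave 0.11, -0.35 and 0.37, so they did not share a direction. The 0.37 was that of 161538_r_at (limma, unadjusted p = 0.0276, adjusted p = 0.626), whose signals were only 0.8 to 12.9.

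The 3 other melanocyte gene lists did not pass with noise either. In the average over strains 0 of 6 melanosome enzyme, matrix and transporter genes, 0 of 9 biogenesis and transport genes and 0 of 13 ligands, receptors and regulators passed in limma (0.46% of all tested). In this average 0 genes of each list had an unadjusted p under 0.05 (7.63% of all tested). The list medians were 0.06, 0.02 and -0.01, against -0.02 over all tested probe sets. In 129X1/SvJ alone 1 of 6, 2 of 9 and 1 of 13 had an unadjusted p under 0.05 (11.5% of all tested). In B6.CAST 0 of each list did (2.1% of all tested). In the difference of noise effects 0 of 6, 0 of 9 and 3 of 13 did (2.97% of all tested). Limma called 0 of each list in these 3 comparisons. Trpm1 gave -0.15 ± 0.17 (adjusted p = 0.868) and Kitl -0.06 ± 0.19 (adjusted p = 0.958). The intermediate cell marker Gsta4 was lower on average with noise without passing, at -0.36 ± 0.11 (unadjusted p = 0.0065, adjusted p = 0.355). It gave -0.45 ± 0.14 in 129X1/SvJ (adjusted p = 0.266) and -0.26 ± 0.17 in B6.CAST (adjusted p = 1).

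Blood cell markers had noise differences of opposite sign in the strains, and limma called 0 of them in either. The 12 neutrophil markers were all positive in 129X1/SvJ (median 0.79, 1 at an unadjusted p under 0.05 against 11.5% of all tested) and all negative in B6.CAST (median -1.84, 7 at an unadjusted p under 0.05 against 2.1%). Their summed signal was 3493 to 21315 in control and 12423 to 37151 in noise-exposed 129X1/SvJ, and 5981 to 19972 and 2375 to 2660 in B6.CAST. In the test of the difference of noise effects 9 of the 12 had an unadjusted p under 0.05 (2.97% of all tested), and 0 passed in limma. Of 7 erythroid markers 5 were positive in 129X1/SvJ (median 0.26) and 7 of 7 negative in B6.CAST (median -0.82), with 0 at an unadjusted p under 0.05 in either strain. The part of blood cell content or other tissue composition in the noise effects on Kit and the other melanocyte genes was not tested. Of the 14 macrophage markers, limma called 1 in the noise average (0.46% of all tested). It was Cd14, a receptor for bacterial lipopolysaccharide, higher with noise at 0.86 ± 0.16 (adjusted p = 0.0389). The call was lost in 8 of the 10 fits that each left out 1 array. Hair cell, supporting cell and spiral ligament markers summed to 40955 to 46328 in control and 34294 to 40676 in noise-exposed 129X1/SvJ. In B6.CAST they summed to 52680 to 53622 and 46494 to 50213.5. Schwann cell and myelin markers gave 28270 to 32020 and 25874 to 26348 in 129X1/SvJ. In B6.CAST they gave 27267 to 31443 and 26268 to 31869. Sums of marginal and basal cell markers overlapped between control and noise in each strain.

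The genes whose signal followed a melanocyte gene most closely were ranked by Pearson's r of log2 signal over the 10 arrays, which share strain, exposure and RNA quality. For Dct they were Phtf1 (0.994), Tmem45a (0.978), Pdhb (0.974) and Clta (0.973). For Tyr they were Kif3a (0.974), Zfp185 (0.945), Scp2 (0.920) and Cotl1 (0.915). For Sox10 (102856_at) they were Cln6 (0.965), Trip6 (0.962), Stk10 (0.958) and Sh3gl1 (0.957). For Kit, added after its values were seen, they were Hagh (0.976), Pdk1 (0.968), Tcea3 (0.952) and Dctn6 (0.951). For the dim probe sets of Ednrb and Tyrp1 the closest were Mme (0.948) and Has3 (0.906). Only probe sets past the filter were ranked, so Tyrp1, Mitf and Ednrb could not be listed as a closest gene. With so few genes kept for each, the absence of the other members is not read here. The values describe these arrays alone.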

How the data were processed

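Signal intensities of 12488 probe sets were deposited by the authors for 10 one-colour arrays of biotin-labelled cRNA, already scaled so that the mean of each array, after trimming 2% at each end, was about 500. Software and settings are not given in the sources at hand, and the values carry no detection flags, so precision rests on the number of arrays. Of the probe sets, 10855 carry 1 gene symbol, 396 several and 1237 none in the platform annotation, and 10839 symbols were updated by gene ID with RefSeq (GRCm38.p6). Here the intensities were quantile normalised as log2(intensity + 16), 66 control probe sets and the dimmest 30% were left out, and 8695 were fitted in limma 3.58.1 (R 4.3.3). The fit had 4 group means over all 10 arrays and a variance trend, with Benjamini-Hochberg adjustment over all probe sets for 7 comparisons. Standard errors come from this fit, and overlap between groups was read on normalised values. For lists, a gene was read at its brightest probe set. Named genes outside the 8 were those of each list that passed in any comparison, then those of smallest p up to 3 in all. Members and lists were chosen with earlier results of these data known. The fit was tested on simulated data, with 100 probe sets changed by 0.7 on the log2 scale and 100 by 1.5. Each simulated probe set had the same spread on all arrays, so arrays of high Gapdh ratio or low likeness were not imitated. Of those changed by 0.7 it called 40 for the strain average and 14 for the strain in control mice. For the noise average it called 35 and for noise in 129X1/SvJ 24. Of those changed by 1.5 it called 82, 68, 84 and 79, in the same order. False calls numbered 7, 4, 2 and 6 in that order. No 2 arrays held identical values. Replicate numbers are shared between groups. Deviations of same-numbered arrays from their group means had correlations of -0.39 to 0.14 in 13 pairs, 2 above 0.1. With 2 or 3 arrays in a group these cannot show whether the numbers mark a batch. The main fit did not use the numbers. Alternatives covered scaling, pseudocount, filter, variance trend, array weights, fits of the compared arrays alone, leaving out each array or both arrays of high Gapdh ratio, and a replicate block. Promoters were taken from RefSeq.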

Additional observations from a re-analysis of the deposited data

How the results depend on the processing

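The counts of melanocyte probe sets passing changed only in the strain comparisons. In control mice the count of 0 became 1 (Dct) with a stricter filter on dim probe sets, with array quality weights, with only the arrays compared, and without noise array 1 of 129X1/SvJ (range 0 to 1 over single arrays left out). Among noise-exposed mice the count of 1 became 0 without the variance trend, with only the arrays compared, without both arrays of high Gapdh ratio and with the replicate number as a block, and 2 with array quality weights, and it ranged from 0 to 1 over single arrays left out. In the strain average the count of 2 became 1 without both arrays of high Gapdh ratio and with the replicate block, and ranged from 1 to 2 over single arrays left out. There Dct passed in 19 of 19 alternatives (adjusted p up to 0.0207) and Kit in 16 of 19. In the noise comparisons and in their difference the count was 0 under each alternative, and the noise average of Kit had adjusted p from 0.0967 to 0.991. Trpm1 passed in 18 of 18 alternatives in the strain average, in 8 of 19 in control mice and in 4 of 19 among noise-exposed mice. Counts over all probe sets ranged from 23 to 152 (reported 80), 26 to 192 (126) and 137 to 418 (282) for the strain in control mice, in noise-exposed mice and on average. For noise they ranged from 22 to 71 (44) in 129X1/SvJ, 0 to 7 (4) in B6.CAST and 10 to 54 (40) on average, with 0 throughout for the difference. Of 999 recomputed values, 60 changed sign, 0 of them values that had passed. In refits chosen after seeing the data, Atp7a and Lyst passed in the strain average without noise array 1 of 129X1/SvJ (1.76 and 1.16, adjusted p = 0.00951 and 0.0461), and neither passed without both arrays of high Gapdh ratio, nor did any dim melanocyte probe set in either refit. The cause of these changes was not tested. Low signal limits Tyrp1, Mitf, Ednrb and Oca2.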
